A study of Mus musculus with 2 samples.

Results

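Cathepsins are proteases of the lysosome, and the 2 lysosome-associated membrane proteins LAMP1 and LAMP2 are the most abundant glycoproteins of its limiting membrane. The 10 genes described here are 7 cathepsin genes (*Ctsa*, *Ctsb*, *Ctsc*, *Ctsd*, *Ctsh*, *Ctsl* and *Ctsz*), *Lamp1*, *Lamp2* and *Cst3*, which encodes the secreted cathepsin inhibitor cystatin C. They were chosen by name, with earlier results of these data known. A probe was counted to a gene when the RefSeq accession that the array lists for it belongs to that gene. All 10 genes were found on both arrays, with 13 probes, among 24021 genes and 33012 probes that were measured above background. *Ctsa*, *Ctsd* and *Lamp2* had 2 probes each, and on each array all 13 probes were well above background for Cy3 and for Cy5.

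Most cathepsins are made as inactive precursors, carried to the lysosome by mannose 6-phosphate receptors and activated there at acidic pH, which the vacuolar proton pump (V-ATPase) maintains. Ctsb, Ctsc, Ctsh, Ctsl and Ctsz are cysteine proteases of the papain family, Ctsd is an aspartic protease and Ctsa is a serine carboxypeptidase that also stabilizes other lysosomal enzymes. Many lysosomal genes share a promoter element, built around the letters CACGTG, that transcription factors of the MiT/TFE family (Tfeb, Tfe3, Mitf and Tfec) can bind.

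The arrays compared mouse embryonic stem cells (mESCs) of genotype AIMP3f/f;cre-ERT2, exposed to 2 μM tamoxifen (4-OHT) over 4 days, with cells of the same genotype given ethanol. In these cells both *AIMP3* alleles are flanked by loxP sites and 4-OHT activates a Cre recombinase that removes the flanked DNA. AIMP3 (gene *Eef1e1*) is a subunit of the complex of aminoacyl-tRNA synthetases. RNA of each of 2 AIMP3-depleted replicates was labelled with Cy5 and set on 1 array against 1 pool of RNA from 2 control replicates, labelled with Cy3.

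Both groups were kept in medium with LIF, and the sources used here name feeder fibroblasts for general culture and fibroblast-conditioned medium for drug treatment. Only the depleted cells received 4-OHT and had active Cre, so the effects of the compound, of Cre and of the lost gene cannot be told apart here. The dyes were not swapped, so a dye effect of a probe and the effect of depletion cannot be told apart either. The control pool is 1 sample, and the test leaves out the spread between control cultures. Nothing in the labels says that the replicates came from separate cultures, so p-values measure only the spread between these 2 arrays. *Eef1e1* had normalized log2 signals of 12.12 and 12.18 in the control pool and of 11.22 and 11.28 in depleted cells, a log2 ratio of -0.90 on both arrays. Each value rests on an intensity and not on counted molecules, and the number of arrays limits its precision. In each channel 59.3% to 60.6% of spots were well above background.

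In AIMP3-depleted mESCs, transcripts of *Ctsh*, *Lamp1*, *Ctsb* and *Ctsl* rose past 1.5-fold compared with the control pool, and none of the 10 genes fell. *Lamp2*, *Ctsd* and *Ctsa* rose by less than 1.5-fold. *Ctsz*, *Ctsc* and *Cst3* did not pass the test in this fit, and for *Ctsz* this depended on the processing. Ratios were tested against 0 with limma over all 24021 genes, and a gene was called raised or lowered when it was past 1.5-fold with an unadjusted p under 0.05. By this rule 4 of the 10 genes were raised and 0 were lowered, beside 5.53% raised and 0.791% lowered among all tested genes. The deposited table gave 2130 raised genes in all, and the fit described here 1328. With a Benjamini-Hochberg adjusted p under 0.05 at any fold, 7 of the 10 were higher and 0 lower, beside 30.6% and 23.7% of all genes. The median log2 ratio of the 10 genes was 0.51 (0.50 on array 1 and 0.53 on array 2), and that of all tested genes was 0.016. Since the genes were chosen with earlier results known, these values of all genes serve as a background and not as a test. In a bulk sample, more cells of a type and more RNA per cell cannot be told apart.

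**Figure D1:**
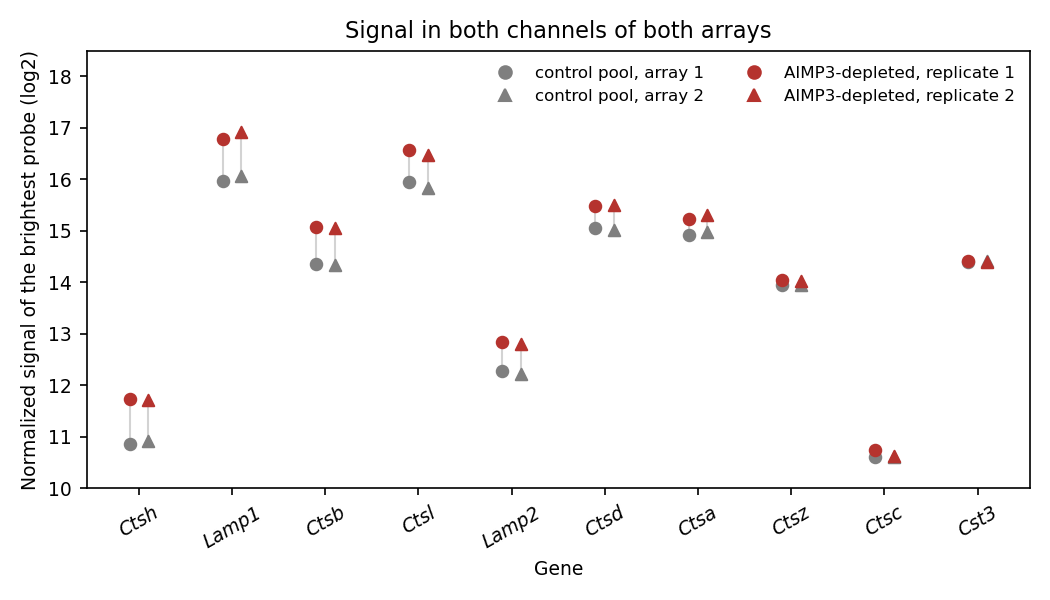
Normalized log2 signal of the brightest probe of each gene (y axis) in the control pool (grey) and in AIMP3-depleted mESCs (red), with circles for array 1 and triangles for array 2. In 9 of the 10 genes both red points lie above both grey points, and for Cst3 they overlap.

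The first group is the membrane proteins. For *Lamp1*, which lines the inner face of the lysosomal membrane with its sugar chains, the normalized log2 signal was 15.97 and 16.07 in the control pool on arrays 1 and 2 and 16.79 and 16.92 in AIMP3-depleted mESCs. Both depleted signals lay above both control signals, and the rise was larger than the gap of 0.099 between the measurements of the same pool. The log2 ratio was 0.84 ± 0.020 (SD, n = 2), or 1.79-fold, with an adjusted p of 5.47e-05 by limma with Benjamini-Hochberg adjustment.

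*Lamp2*, whose product also serves as the receptor of chaperone-mediated autophagy in one of its splice forms, gave 12.28 and 12.23 in the control pool and 12.84 and 12.81 in depleted cells. The signals did not overlap. The log2 ratio of this brighter probe, listed under NM_010685, was 0.57 ± 0.015 (SD, n = 2; limma adjusted p = 0.000172). At 1.49-fold it lay just under the 1.5-fold threshold, and *Ctsl*, at 1.55-fold, lay just above it. The other probe, listed under the transcript NM_001017959, had log2 ratios of 0.42 and 0.48, below those of the brighter probe on both arrays.

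The cysteine cathepsins divided into genes that rose and genes that did not pass the test. *Ctsh*, an aminopeptidase, had log2 signals of 10.86 and 10.92 in the control pool and of 11.74 and 11.73 in depleted cells. All depleted signals exceeded all control signals, and the mean log2 ratio, 0.84 ± 0.055 (SD, n = 2; 1.79-fold; limma adjusted p = 6.24e-05), was the highest of the 10 genes. It was above *Lamp1* on array 1 (0.88 against 0.82) and below it on array 2 (0.80 against 0.85). Other processing put *Ctsb* or *Lamp1* first.

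*Ctsb*, an endopeptidase that can also remove dipeptides from the end of a chain, had signals of 14.35 and 14.33 in the control pool and of 15.08 and 15.06 in depleted mESCs. Its log2 ratio was 0.73 on both arrays (SD 0.0047, n = 2; 1.66-fold; limma adjusted p = 7.83e-05), the smallest difference between arrays of any of the 10. *Ctsl*, a strong endopeptidase, had signals of 15.95 and 15.83 in the control pool and of 16.57 and 16.47 in depleted cells. These did not overlap, although the control pool itself differed by 0.11 between the arrays. The ratio within each array was nearly the same, 0.62 and 0.64, which gave a mean of 0.63 ± 0.0087 (SD, n = 2; 1.55-fold; limma adjusted p = 0.000124).

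*Ctsz*, a carboxypeptidase, had signals of 13.96 and 13.95 in the control pool and of 14.05 and 14.03 in depleted cells. The mean log2 ratio was 0.084, with a 95% interval of -0.022 to 0.19 and an adjusted p of 0.15 by limma. *Ctsc*, which activates serine proteases of immune cells by trimming their ends, had signals of 10.61 on both arrays in the control pool and of 10.75 and 10.64 in depleted cells. Its ratios of 0.13 and 0.029 were the farthest apart of the 10 genes, and the 95% interval of the mean of 0.082, -0.036 to 0.20, includes 0 (limma adjusted p = 0.198). The upper bounds of these intervals lie below the 1.5-fold threshold, so a rise of that size was outside both intervals. For *Ctsz* and *Ctsc* both depleted signals nevertheless lay above both control signals, as they did in 9 of the 10 genes and in 39.6% of all tested genes, and both lay below in 0 of the 10 genes and in 34% of all.

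*Ctsd*, the main aspartic protease of the lysosome, had signals of 15.06 and 15.02 in the control pool and of 15.49 and 15.51 in AIMP3-depleted mESCs. Its log2 ratio was 0.46 ± 0.037 (SD, n = 2; 1.37-fold; limma adjusted p = 0.000411). The dimmer probe of the same transcript gave 0.45 and 0.46, close to the 0.43 and 0.48 of the brighter one. *Ctsa*, the serine carboxypeptidase, had signals of 14.92 and 14.98 in the control pool and of 15.23 and 15.30 in depleted cells. Its log2 ratio was 0.32 ± 0.012 (SD, n = 2; 1.25-fold; limma adjusted p = 0.00145), and its dimmer probe, listed under another transcript, gave 0.37 and 0.42. In all 3 genes with 2 probes, both probes were higher in depleted cells on both arrays.

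*Cst3*, the inhibitor of cysteine cathepsins in the set, had signals of 14.40 and 14.41 in the control pool and of 14.41 and 14.40 in depleted cells. These overlap. The mean log2 ratio was -0.0028 with a 95% interval of -0.11 to 0.10 (limma adjusted p = 0.962). Its sign turned when the scanner software's processed signals (0.083), the authors' deposited table (0.12) or median centring (0.33) were used in place of loess.

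**Figure D2:**
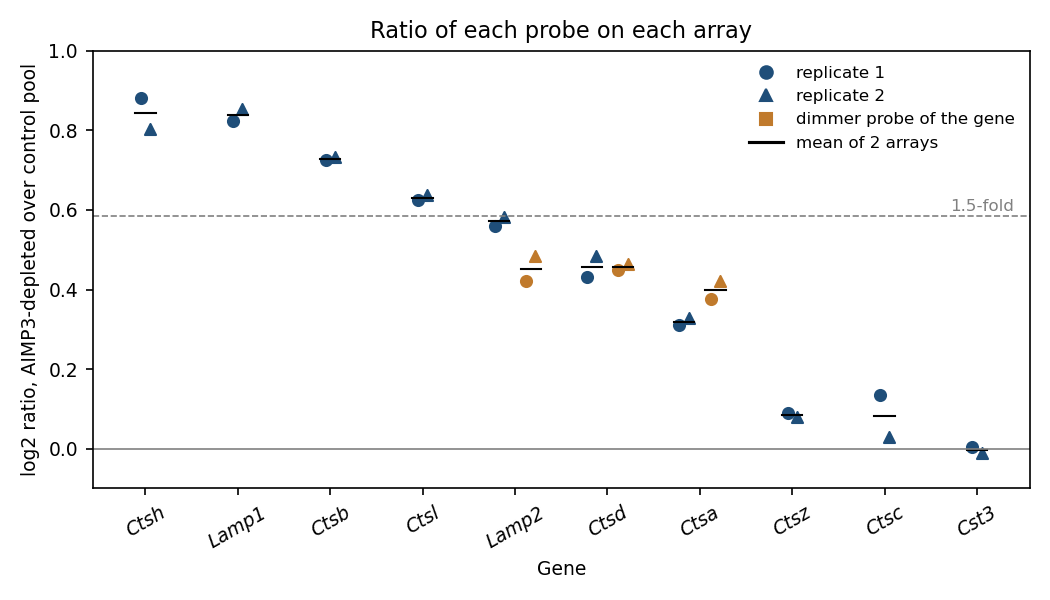
Log2 ratio of AIMP3-depleted mESCs over the control pool for all 13 probes, with circles for replicate 1, triangles for replicate 2, the dimmer probes of Lamp2, Ctsd and Ctsa in orange and the mean of both arrays as a black line. Ctsh, Lamp1, Ctsb and Ctsl lie above the dashed 1.5-fold line on both arrays, and Ctsz, Ctsc and Cst3 lie near 0.

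Ordered by mean log2 ratio, the genes ran *Ctsh*, *Lamp1*, *Ctsb*, *Ctsl*, *Lamp2*, *Ctsd*, *Ctsa*, *Ctsz*, *Ctsc* and *Cst3*. Of the 9 pairs of neighbours in this order, only *Ctsd* and *Ctsa* (a difference of 0.14) and *Ctsa* and *Ctsz* (0.24) differed by more than 2 standard errors of the difference. The other 7 pairs did not, and *Ctsh* and *Lamp1*, as well as *Ctsz* and *Ctsc*, changed places between the arrays. The order also depended on the processing. *Ctsb* was above *Ctsh* with the deposited table (0.85 against 0.82) and with the processed signals (0.81 against 0.78). With median centring *Lamp1* was highest, at 1.31, and *Ctsh* was at 1.06.

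Probes with strong signal need care on these arrays. The brightest probes of 9 of the 10 genes had a mean log2 intensity over 11.2, and 4.91% of the 8007 tested genes in that range were raised. Among the 820 tested genes with a mean log2 intensity over 16, the median log2 ratio after loess was 0.16 and 8.54% were raised. *Lamp1* (16.4) and *Ctsl* (16.2) lie in this range. The local median, taken over a gene and the 100 genes on either side of it in intensity, was 0.056 for *Lamp1* and -0.011 for *Ctsl*. For *Ctsa*, *Ctsb*, *Ctsd*, *Ctsz* and *Cst3* it was below 0, from -0.082 to -0.062. After local medians were subtracted on each array, the log2 ratio was 0.78 for *Lamp1* and 0.64 for *Ctsl*, and the same count of 4 of the 10 genes, *Ctsh*, *Lamp1*, *Ctsb* and *Ctsl*, was past 1.5-fold, beside 4.9% of all genes. At any fold *Ctsz* then passed the test, with a log2 ratio of 0.15 (limma adjusted p = 0.032), and *Ctsc* and *Cst3* still did not. *Ctsl* was under the threshold, at 0.46, with the signals that the scanner software had processed.

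**Figure D3:**
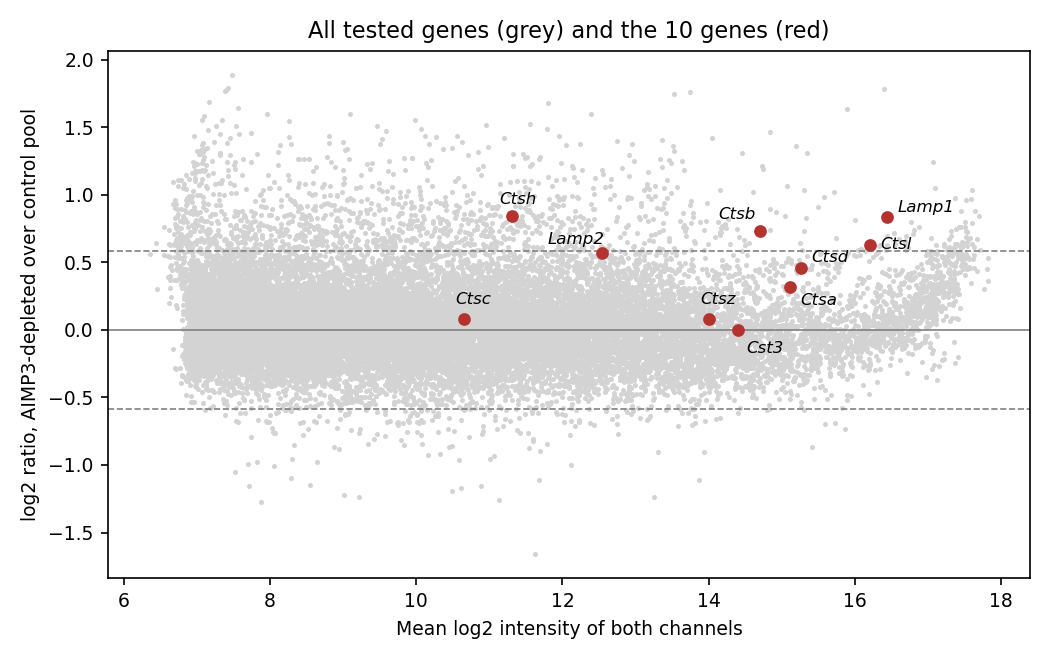
Mean log2 ratio of AIMP3-depleted mESCs over the control pool (y axis) against the mean log2 intensity of both channels (x axis) for 24021 genes (grey) and the 10 genes (red), with dashed lines at 1.5-fold up and down. The grey cloud bends upward at the bright end, above Lamp1 and Ctsl in intensity, and Ctsh, Lamp1, Ctsb and Ctsl lie above the upper dashed line.

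The calls were repeated in 11 settings that gave a ratio, single arrays included, on the log2 ratio as each setting gave it. *Ctsh*, *Lamp1* and *Ctsb* were past 1.5-fold in all 11, with log2 ratios of 0.78 to 1.06, 0.75 to 1.31 and 0.73 to 1.08. *Ctsl* was past it in 9 of 11 and *Lamp2* in 2 of 11. *Ctsl* fell short with the processed signals (0.46) and with the deposited table (0.50). *Ctsd* and *Ctsa* were past it in 1 of 11, with median centring, and *Ctsz*, *Ctsc* and *Cst3* in 0 of 11. Median centring also moved the median of all tested genes to 0.18. Relative to that median of each setting, *Ctsh* ran from 0.79 to 0.88, *Lamp1* from 0.78 to 1.13 and *Ctsb* from 0.71 to 0.90. On this relative scale *Ctsa*, at 0.52 with median centring, was under 1.5-fold in every setting, and *Lamp2*, at 0.60 with the processed signals, was above it there too.

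**Figure D4:**
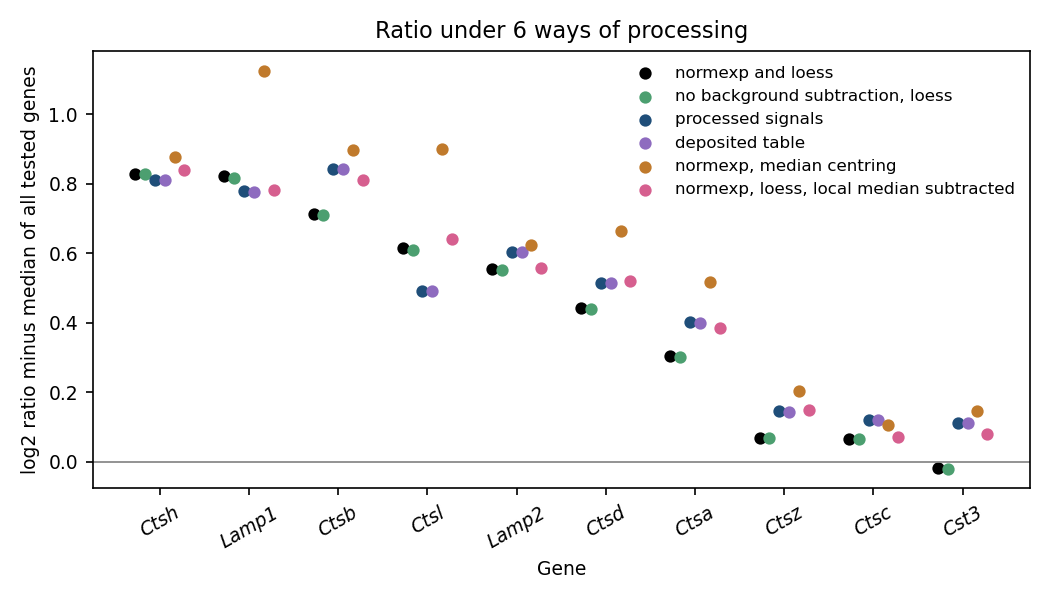
Mean log2 ratio of each gene (y axis) after subtraction of the median of all tested genes under the same processing, with 1 colour for each of 6 ways of processing. Every gene but Ctsc is highest with median centring, and Ctsh varies least among the 4 raised genes, between 0.81 and 0.88.

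The promoters of the genes were searched for CACGTG, the core of the element that MiT/TFE factors and other factors of the same structural class can bind. RefSeq promoter sequences of assembly GRCm38.p6 were matched by symbol for 8 of the 10 genes, and the 250 bases before each start were used (*Ctsb* and *Ctsh* had no match). The motif reads the same on both strands. It was found in 4 of the 8 genes (*Lamp1*, *Ctsd*, *Ctsa* and *Ctsl*), beside 6.86% of 27025 genes with such a sequence. The stretches that hold it follow because the count rests on their letters, each read 5′ to 3′ on the strand of its gene with CACGTG in capitals.
Lamp1, chr8:13159088-13159160, plus strand: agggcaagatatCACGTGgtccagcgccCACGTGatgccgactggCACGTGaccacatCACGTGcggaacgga
Ctsd, chr7:142387908-142387937, minus strand: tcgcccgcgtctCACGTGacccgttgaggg
Ctsd, chr7:142388055-142388077, minus strand: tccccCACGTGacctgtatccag
Ctsa, chr2:164833749-164833772, plus strand: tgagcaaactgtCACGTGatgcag
Ctsl, chr13:64370739-64370768, minus strand: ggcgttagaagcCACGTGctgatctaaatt

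*Lamp1* held 4 copies, which begin 61, 45, 28 and 15 bases before the annotated start. *Ctsd* held 2, at 98 and 245 bases, and *Ctsl* held 1, at 236 bases. In *Ctsa* the motif lay 12 bases before the start in 1 of its 2 annotated promoters and was not in the other. The longer TCACGTG, which contains CACGTG and was searched on both strands, was in 3 of the 8 genes and in 3.58% of all. The full CLEAR sequence, a palindrome of 10 letters around CACGTG, was in 0 of the 8 genes and in 0.27% of all. In the lists of other lysosomal genes CACGTG was in 19 of 104 genes (18.3%), and in 3 of 7 genes of lysosomal enzyme sorting (42.9%). A match describes letters and is no measurement of binding. *Lamp2*, which rose with an adjusted p under 0.05, and *Ctsz*, *Ctsc* and *Cst3*, which did not pass the test, had no CACGTG in this window. Among all tested genes with a promoter sequence, the median log2 ratio was 0.024 in the 1125 with CACGTG and 0.028 in the 10747 without it, and 5.16% and 6.54% were raised.

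Other genes of the lysosome were described by lists of their names, also chosen with earlier results of these data known. Of 130 genes in 9 lists, 106 were tested, and 9 of them were raised and 0 lowered, beside the 5.53% raised among all genes. At any fold, 61 of the 106 were higher and 14 lower with an adjusted p under 0.05, beside 30.6% and 23.7% of all genes, and their median log2 ratio was 0.19, below the 0.51 of the 10 genes.

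Among the other cathepsins and legumain, 6 of 8 were tested and 1 was raised, beside 5.53% of all genes, with a list median of 0.39. By adjusted p 5 of the 6 were higher and 0 lower, beside 30.6% and 23.7% of all genes. The count was 2 on array 1 alone, with the processed signals and with the deposited table, and 3 with median centring. The raised gene was *Ctss*, an endopeptidase of antigen-presenting cells, whose log2 signal went from 8.37 and 8.25 in the control pool to 9.23 and 9.27 in depleted cells, which is a log2 ratio of 0.94 ± 0.11 (SD, n = 2; limma adjusted p = 6.66e-05). *Ctse* and *Ctsg* were not above background in either channel. None of the 9 placental cathepsins, a rodent family related to *Ctsl*, was tested, since 6 were not above background in either channel and the other 3 were so in only some measurements.

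Of 15 other cathepsin inhibitors, 7 were tested and 3 were raised, beside 5.53% of all genes, with a list median of 0.42. This median was 0.28 on array 1 and 0.56 on array 2, 0.16 with no filter on dim probes and 0.64 when both channels had to be above background. *Cstb*, which encodes the cytosolic inhibitor cystatin B, rose from 12.99 on both arrays to 13.85 on both, so that its log2 ratio was 0.87 ± 0.0032 (SD, n = 2; limma adjusted p = 5e-05). *Ctla2a* and *Ctla2b*, which resemble the propeptide of cathepsin L, had log2 ratios of 0.95 and 1.00. These genes are near-identical copies, so their probes may share RNA and the values are uncertain as separate measurements. *Cst3*, in contrast to *Cstb*, had a log2 ratio near 0.

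Of the other lysosomal hydrolases 36 of 38 were tested, and 2 were raised, a share near the 5.53% of all genes. At any fold 20 were higher and 4 lower by adjusted p, beside 30.6% and 23.7% of all genes, with a median of 0.22. The raised genes were *Gla*, which encodes alpha-galactosidase A, at 0.64 (0.71 and 0.56 on the arrays), and *Hyal1*, which encodes a hyaluronidase, at 0.62 (0.58 and 0.66). The count raised was 1 on array 2 alone, 11 with median centring and 0 with the processed signals, which gave 0.44 and 0.55 for these genes. *Gla* had the brightest probe of the lysosomal genes named here, at a mean log2 intensity of 17.2, where the local median log2 ratio was 0.32, and its ratio relative to it was 0.31, under the threshold. The 3 activators and cholesterol carriers had 0 raised genes and a median of 0.060, which was 0.14 after subtraction of local medians, 0.12 with the deposited table and 0.35 with median centring.

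Of the other lysosomal membrane proteins 23 of 25 were tested, and 2 were raised, beside 5.53% of all genes. The median was 0.12 (0.060 with the processed signals and 0.037 with the mean of all probes). *Cd63*, a tetraspanin of late endosomes and lysosomes, had signals of 15.54 and 15.65 in the control pool and of 16.39 and 16.43 in depleted cells, a log2 ratio of 0.81. *Laptm5*, a lysosomal membrane protein of blood cells, had a log2 ratio of 0.78 and a dimmer probe at 0.62. At any fold 11 genes of this list were higher and 5 lower by adjusted p, beside 30.6% and 23.7% of all genes. All 19 subunits of the V-ATPase were tested, with a median of 0.34. By adjusted p 15 were higher and 1 was lower, beside 30.6% and 23.7% of all genes. Past 1.5-fold was 1 of the 19, *Atp6v0d1* at 0.60, a share near the 5.53% of all genes. The count past 1.5-fold was 0 on array 1 alone and after subtraction of local medians (0.56 for *Atp6v0d1*), 2 with the deposited table and 11 with median centring. The 9 genes of lysosomal enzyme sorting had a median of 0.057, with 2 higher and 3 lower by adjusted p, which is near the shares of all genes, and the sign of this median depended on the processing.

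Of the 4 MiT/TFE factors, *Tfeb* rose by less than 1.5-fold, from 8.24 and 8.17 to 8.77 on both arrays, and its log2 ratio was 0.56 ± 0.059 (SD, n = 2; limma adjusted p = 0.000225). It was past the threshold with the deposited table (0.76), the processed signals (0.72) and median centring (0.70), without subtraction of the background (0.60) and on array 2 alone (0.60). The log2 ratio of *Mitf* was 0.22 (limma adjusted p = 0.00808), but its dimmer probe gave -0.089. For *Tfe3* the log2 ratio was -0.13 (limma adjusted p = 0.052), and *Tfec* was not above background in either channel. The arrays measure transcripts, and the location of these factors in the cell, which controls their activity, was not measured.

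**Figure D5:**
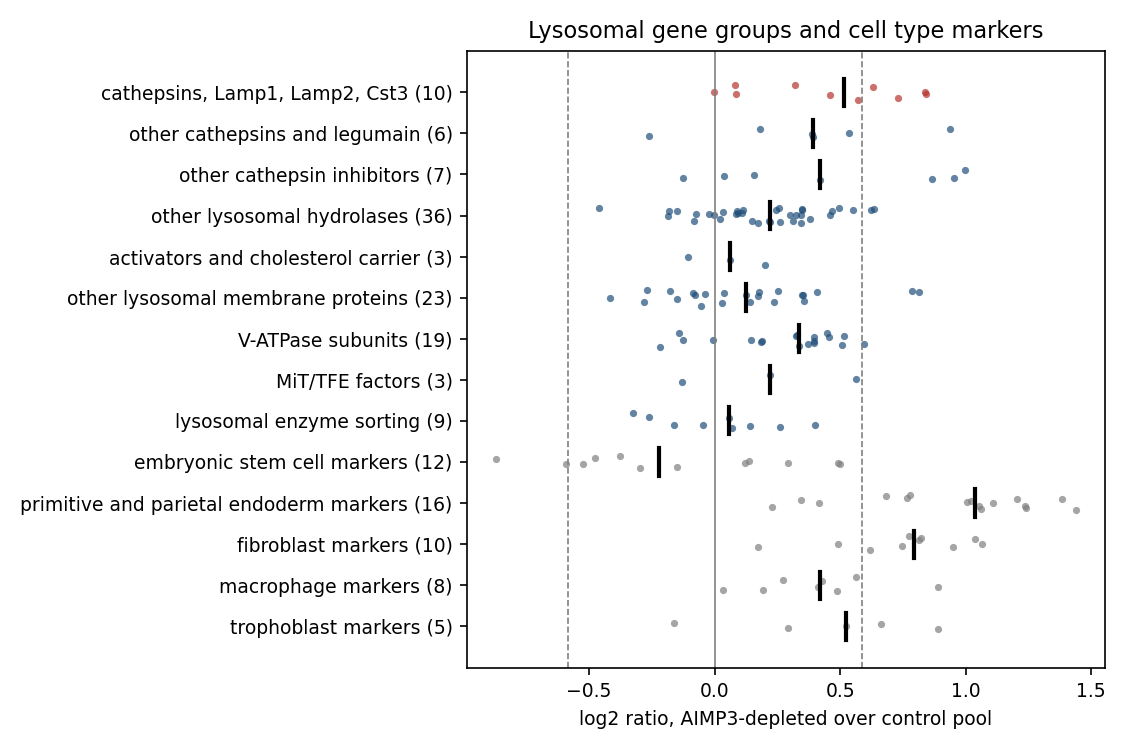
Log2 ratio of each tested gene (points) in the 10 genes (red), 8 lists of other lysosomal genes (blue) and 5 lists of cell type markers (grey), with the median of each list as a black line, the number of genes in parentheses and dashed lines at 1.5-fold up and down. The 10 genes have a median of 0.51, the V-ATPase subunits 0.34 and the primitive and parietal endoderm markers 1.04.

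Markers of other cell types were described in the same way, beside the 5.53% raised and 0.791% lowered among all tested genes. All 16 markers of primitive and parietal endoderm were tested, 13 were raised and 0 lowered, and the median log2 ratio was 1.04, from 0.23 for *Amn* to 1.44 for *Sox17*. Their summed linear signal was 241903 and 246936 in the control pool and 474849 and 466289 in depleted cells. *Sparc*, at the bright end, made up 36.2% to 45.5% of this sum. Without *Sparc* it was 154419 and 155448 in the control pool and 264019 and 254158 in depleted cells. The sum of the 10 lysosomal genes was 259250 and 259202 in the control pool and 381020 and 386625 in depleted cells. Without *Lamp1*, which made up 24.7% to 32.1%, it was 195140 and 190523 in the control pool and 267487 and 262595 in depleted cells. The part of endoderm cells in the rise of the lysosomal genes was not tested.

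Of 12 fibroblast markers, 10 were tested and 8 were raised (5.53% of all genes were), with a median of 0.79, from 0.17 for *Thy1* to 1.06 for *Col1a1*. Their summed signal was 20746 and 21457 in the control pool and 37558 and 38187 in depleted cells, and *Lum* was not above background in either channel. Of 10 macrophage markers, 8 were tested and 1 was raised, with a median of 0.42, from 0.033 for *Fcgr1* to 0.89 for *Lyz2*, and a summed signal of 24684 and 24948 in the control pool and of 30745 and 30052 in depleted cells. *Itgam*, with a log2 ratio of 0.27, made up 87.5% to 89.4% of this sum, and without it the sum was 2606 and 2749 in the control pool and 3520 and 3765 in depleted cells. By adjusted p, 7 of the 8 were higher, beside 30.6% of all genes. The count raised was 3 with no background subtraction, 4 with the processed signals, median centring or the deposited table, and 2 on array 1 alone, and the median reached 0.61. *Ptprc* and *Cx3cr1* were not above background in either channel, and *Adgre1* was so on both arrays in depleted cells and on 0 arrays in the control pool, at least 1.40-fold higher. *Adgre1* was tested only because of its signal in depleted cells, so its place among the 7 is no support for a difference. Of 7 trophoblast markers, 5 were tested and 2 were raised, with a median of 0.52 (1 raised on array 1 alone), from -0.16 for *Eomes* to 0.89 for *Hand1*. The median was 0.28 with the processed signals and after subtraction of local medians, 0.32 with the deposited table and 0.35 with the mean of all probes. Their summed signal was 117216 and 120498 in the control pool and 172312 and 169928 in depleted cells, of which *Gcm1* alone made up 97.6% to 97.9%. *Gcm1* lies at the bright end, and its log2 ratio of 0.52 became 0.24 after subtraction of the local median. Without *Gcm1* the sum was 2492 and 2592 in the control pool and 3826 and 4102 in depleted cells. *Elf5* and *Tpbpa* were not above background in either channel. The part of these markers' cells in the lysosomal rises was not tested.

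The labelled cell type was checked with 12 embryonic stem cell markers, which were all well above background for both dyes. Of these 0 were raised and 2 lowered, with a median of -0.22, beside 5.53% raised and 0.791% lowered among all genes. By adjusted p 7 of the 12 were lower and 4 higher, beside 23.7% and 30.6% of all genes. The ratios ran from -0.87 for *Fgf4* to 0.50 for *Dppa5a*, which lies at the bright end and had a log2 ratio of 0.098 after subtraction of the local median (limma adjusted p = 0.102). Their summed signal was 336240 and 332716 in the control pool and 347006 and 334937 in depleted cells, and without *Dppa5a* it was 200314 and 197701 in the control pool and 152571 and 146792 in depleted cells. With median centring the list median turned to 0.071.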

How the data were processed

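Total RNA of 2 AIMP3-depleted replicates (Cy5) and of 1 control pool (Cy3) had been hybridized to 2 Agilent mouse arrays on 1 slide. The authors deposited the output of Feature Extraction (version 11.5.1.1 in the file header), which holds spot and local background intensity values that were not normalized. It also holds processed signals, which the software corrected for background and dye, and the ratio of both dyes per spot as a log10 value, also deposited. The p-value per spot in these files is the software's own and was not used. The authors also deposited log2 values that they had normalized with GeneSpring. These equalled the scanner's log ratio, converted to log2, plus 0.040 and 0.039 on the 2 arrays, to within 0.01 for 99.8% of tested probes, which fixes their direction and scale. Their column medians were 0.091 and 0.11. No column of per-sample values was left out (0 columns).

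Median spot signals were corrected with limma's normexp (offset 50) and normalized by loess within each array, with control spots and flagged spots (215 and 227) at weight 0. A probe was kept if, on each array, at least 1 of its channels was well above background, which held for 33012 of 55681 probes and left out 22669. The median signal over background was 2.68 to 3.31. Spots were averaged, the brightest probe stood for a gene, and 14971 of 24021 genes had a RefSeq name. The rest keep the name listed on the array. Channel signals are the loess ratios combined with mean intensities quantile-normalized between arrays. The mean log2 ratio was tested against 0 with lmFit and eBayes (1 residual and 5.28 prior degrees of freedom), and p-values were adjusted by Benjamini-Hochberg over all genes. The 95% intervals come from the same fit. Lists were described by counts and medians, with no set test.

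The named lysosomal genes are all 10 genes of the set, all MiT/TFE factors, and in each list up to 4 of the largest rises and up to 3 of the largest falls past the threshold. For cell type markers the highest and lowest ratios are named. The genes and lists were chosen with earlier results of these data known. On simulated arrays with 24021 genes and 200 changed, 199 were called with the right sign, and 0 unchanged genes were called. The planted changes were all past 1.5-fold and lay in genes brighter than the median, with a smooth dye trend that loess can remove. The simulation held no dye effect of single probes and no spread between control cultures. It therefore cannot show how reliable the calls on the real arrays are, above all near the threshold. The alternatives were other background and dye corrections, the deposited table, other filters, probe choices, tests and thresholds, and each replicate left out. The subtraction of local medians was added after the data were seen. Software was limma 3.58.1 in R 4.3.3 (with jsonlite 2.0.0 and version 1.17.8 of data.table), and Python 3.11.15 with pandas 2.3.3 and matplotlib 3.10.9 for promoters and figures.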

Additional observations from a re-analysis of the deposited data

How the results depend on the processing

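The count of the 10 genes past 1.5-fold was 4 and became 7 with median centring in place of loess, 7 with a Benjamini-Hochberg adjusted p at any fold, 0 at 2-fold and 0 with Student's test, which the methods name and which was applied here to the ratios of each gene against 0, after Benjamini-Hochberg adjustment, under which 0 of all 24021 genes were raised (4 of the 10 and 865 of all at an unadjusted p under 0.05). The count of the 106 other tested lysosomal genes past 1.5-fold was 9 and became 33, 75, 0 and 0 under the same changes. Of all genes, 1328 were raised, and 2827 with median centring, 2130 with the deposited table, 1942 with processed signals, 7358 at any fold and 281 at 2-fold. The median log2 ratio of the 10 genes, 0.51, was 0.47 with processed signals, 0.83 with median centring and 0.48 with the mean of all probes. It lay between 0.50 and 0.53 when a replicate was left out. The median of all genes was -0.029 with processed signals and -0.0010 after subtraction of local medians. *Cst3* turned to 0.083 with processed signals, 0.33 with median centring, 0.12 with the deposited table, 0.0053 without replicate 2 (-0.011 without replicate 1) and 0.080 after subtraction of local medians. *Tfe3* turned to 0.13 with median centring. *Fcgr1* turned to -0.077 with processed signals, -0.037 with the deposited table and -0.0020 without replicate 2 (0.067 without replicate 1). The sorting list turned to -0.045 with the mean of all probes and -0.0091 without replicate 1 (0.064 without replicate 2), and the stem cell markers to 0.071 with median centring. The causes were not tested. No paired analysis was possible because both arrays share 1 control pool and each ratio already holds its own control channel. With 2 arrays and no dye swap, the spread between control cultures and the dye effect of a probe could not be estimated.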
